A study of Mus musculus with 10 samples.

Results

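The 10 genes described here are interferon gamma induced GTPases of the mouse and a transcription factor that acts on them. They were chosen by name: the guanylate-binding proteins Gbp2, Gbp3, Gbp5, Gbp6 and Gbp7, the immunity-related GTPases Irgm1, Irgm2, Igtp and Tgtp1, and Irf1, which is itself no GTPase. All 10 were among the 56691 genes of the deposited table, and all 10 passed the filter on low counts, which left 16545 genes to test. The study gave chick early amniotic fluid (ceAF), the fluid around young chicken embryos, to mice with colitis caused by dextran sulfate sodium (DSS), a polysaccharide that injures the lining of the colon, and measured poly(A) RNA of the colon in bulk. Both groups were 8-week-old male C57/BL6 mice that drank 3% DSS for 7 days, with 5 mice given DSS alone and 5 mice then given ceAF by gavage at 15 mL/kg for 10 days. Whether the DSS mice received a gavage of vehicle is not stated, and untreated and mesalazine-treated mice of the study were not analysed here. That each library came from a separate mouse rests on the labels. Total counts were 16275884 to 19901549 per DSS mouse and 14676471 to 18811795 per ceAF mouse.

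Interferon gamma is secreted mainly by T cells and natural killer cells, and its receptor, made of Ifngr1 and Ifngr2, acts through the kinases Jak1 and Jak2. The signal reaches GAS elements in the promoters of early targets such as Irf1, and Irf1 binds ISRE-type elements of later targets, among them the Gbp and Irg genes. Guanylate-binding proteins and immunity-related GTPases coat the vacuoles of intracellular parasites and bacteria, expose them for lysis and help inflammasomes to fire, and in the gut they are made by epithelial cells as well as by macrophages.

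Levels are given in CPM, a gene's count scaled to a library of fixed size, after TMM normalization, which rescales the libraries so that most genes match. In bulk colon, fewer cells of a type and less RNA per cell cannot be told apart. Some libraries stood apart from the rest. The median correlation of log2 CPM with the other mice of the same group was 0.931 for ceAF-1 and 0.948 for DSS-5, against 0.954 to 0.971 for the other 8 mice. DSS-1 had far more neutrophil marker RNA than any other mouse, with a summed level of 1824 CPM over 8 marker genes, and the next highest was DSS-5 at 551 CPM. The marker Ly6g did not follow this sum, at 229 CPM in DSS-1, 482 CPM in DSS-5 and 237 CPM in ceAF-2. Most of the sum of DSS-5 came from this 1 gene. Results that rest on DSS-1, DSS-5 and ceAF-1 are also given with these 3 mice left out, written below as without the 3 mice. This set is not neutral for the 10 genes. Averaged over them, log2 CPM minus each gene's mean was -0.29 in DSS-1 and -0.95 in DSS-5, the lowest DSS mice. In ceAF-1 it was 0.51, against -1.61 in ceAF-4 and -1.33 in ceAF-5. Leaving out the 3 mice thus by itself moves the fold changes of most of these genes down. Brackets behind a list's median hold its lowest and highest value with 1 mouse left out, then its value without the 3 mice.

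The question here was whether these genes differed between mice given ceAF after DSS and mice given DSS alone. None of the 10 members passed the test between the groups, and the mice within each group differed widely. The same few mice were low for nearly every member, and for 8 of 10 members the highest value also came from the ceAF group. Ifng, the inducer, had fewer counts in most ceAF mice, at an unadjusted p only, while the members overlapped between the groups. Mouse by mouse within the groups, the members and Ifng were high and low in much the same animals, at unadjusted p-values only.

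Among the guanylate-binding proteins, Gbp2, a prenylated protein that coats the vacuoles of pathogens, was the most abundant of the Gbp members per length. Gbp2 was at 119, 223, 293, 302 and 87.0 CPM in DSS-1 to DSS-5 and at 139.6, 278, 299, 45.7 and 66.0 CPM in ceAF-1 to ceAF-5. Its group means were 81.4 ± 39.1 CPM per kb in the DSS mice and 65.9 ± 46.8 in the ceAF mice (mean ± SD, n = 5 each). DSS-5, DSS-1, ceAF-4 and ceAF-5 were low and ceAF-2, ceAF-3, DSS-3 and DSS-4 were high, and the groups overlapped, with ceAF-4 and ceAF-5 below the lowest DSS mouse. The log2 fold change of Gbp2, ceAF over DSS, was -0.30 (SE 0.532, adjusted p = 0.946) by the quasi-likelihood test of edgeR, with p adjusted after Benjamini-Hochberg over all genes tested. Gbp5 was at 43.1, 25.4, 33.8, 33.6 and 14.8 CPM in DSS-1 to DSS-5 and at 11.8, 37.0, 48.8, 7.22 and 7.53 CPM in ceAF-1 to ceAF-5. Gbp5, which promotes inflammasome assembly, was low in ceAF-1, unlike Gbp3, Gbp6 and Gbp7, and ceAF-3 and DSS-1 were its highest mice. The log2 fold change of Gbp5 was -0.42 (SE 0.538, adjusted p = 0.92) in the same test, and 3 of 5 ceAF mice lay below the DSS median. Leaving out 1 mouse at a time gave log2 fold changes from -0.63 without ceAF-3 to -0.06 without ceAF-4 for Gbp2 and from -0.92 without ceAF-3 to -0.18 without ceAF-4 for Gbp5, and without the 3 mice it was -0.66 and -0.30.

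Gbp3 was at 75.5, 87.7, 121, 127 and 21.4 CPM in DSS-1 to DSS-5 and at 173, 122, 261, 19.3 and 23.6 CPM in ceAF-1 to ceAF-5. Gbp3, a close relative of Gbp2 that joins it on pathogen vacuoles, was high in ceAF-1 and ceAF-3 and low in DSS-5, ceAF-4 and ceAF-5. Gbp7 was at 68.0, 84.7, 110.0, 118 and 42.1 CPM in DSS-1 to DSS-5 and at 127, 125, 203, 31.9 and 43.7 CPM in ceAF-1 to ceAF-5. Gbp7, which has been tied to oxidase assembly and autophagy in macrophages, had the same 3 low mice and the same highest mouse, ceAF-3. Gbp6 was at 9.97, 27.7, 31.4, 31.0 and 7.20 CPM in DSS-1 to DSS-5 and at 49.1, 28.3, 42.9, 4.65 and 6.10 CPM in ceAF-1 to ceAF-5. For Gbp6, encoded in the Gbp cluster on chromosome 5, DSS-1 also lay far below DSS-2, DSS-3 and DSS-4, and ceAF-1 was the highest mouse. The log2 fold changes in the quasi-likelihood test were 0.47 (SE 0.686, adjusted p = 0.931) for Gbp3, 0.33 (SE 0.467, adjusted p = 0.929) for Gbp7 and 0.29 (SE 0.655, adjusted p = 0.963) for Gbp6. They ranged, with 1 mouse left out, from -0.03 without ceAF-3 to 0.76 without ceAF-4 for Gbp3, from -0.04 without ceAF-3 to 0.57 without ceAF-4 for Gbp7 and from -0.07 without ceAF-1 to 0.57 without ceAF-4 for Gbp6, and without the 3 mice they were -0.07, -0.05 and -0.55. In each of these 3 genes, 2 of 5 ceAF mice lay below the DSS median and the groups overlapped.

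Irgm1, Irgm2 and Igtp are the regulatory immunity-related GTPases, which sit on the cell's own membranes and keep the effector GTPases from acting there. Irgm1 was at 158, 244, 266, 313 and 92.5 CPM in DSS-1 to DSS-5 and at 399, 306, 497, 73.7 and 74.7 CPM in ceAF-1 to ceAF-5. Irgm2 was at 98.2, 165, 186, 213 and 99.7 CPM in DSS-1 to DSS-5 and at 240.1, 212, 359.9, 57.3 and 49.7 CPM in ceAF-1 to ceAF-5. Igtp was at 82.8, 143, 166, 209.9 and 44.4 CPM in DSS-1 to DSS-5 and at 194, 192, 298, 28.0 and 35.5 CPM in ceAF-1 to ceAF-5. All 3 were highest in ceAF-3 and lowest in ceAF-4 or ceAF-5, and DSS-5 lay at the ceAF-4 to ceAF-5 end for Irgm1 and Igtp, while for Irgm2 DSS-1 and DSS-5 were nearly equal. Their log2 fold changes were 0.33 (SE 0.539, adjusted p = 0.942) for Irgm1, 0.27 (SE 0.503, adjusted p = 0.951) for Irgm2 and 0.21 (SE 0.628, adjusted p = 0.974) for Igtp in the quasi-likelihood test. These values ranged with 1 mouse left out from -0.0039 to 0.58 for Irgm1, from -0.12 to 0.51 for Irgm2 and from -0.20 to 0.49 for Igtp, lowest without ceAF-3, and without the 3 mice they were -0.21, -0.15 and -0.32. Igtp and Irgm2 overlap by 7974 bases on the same strand in the deposited annotation, and how reads in the overlap were assigned is not stated, so their 2 profiles may share reads.

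Tgtp1 is an effector immunity-related GTPase, of the kind that the regulatory members restrain and that loads onto parasite vacuoles. Tgtp1 was at 8.92, 27.7, 30.7, 24.8 and 8.58 CPM in DSS-1 to DSS-5 and at 15.7, 47.8, 94.9, 2.86 and 5.94 CPM in ceAF-1 to ceAF-5. ceAF-3 stood far above all other mice and ceAF-4 below them, a ratio of 33.1 within the ceAF group, on counts of 48 and 1731. The log2 fold change of Tgtp1 was 0.73 (SE 0.802, adjusted p = 0.902) by the quasi-likelihood test, the farthest from 0 of the 10 members. Without ceAF-3 it was -0.16, on the other side of 0, without ceAF-4 1.04, and without the 3 mice 0.45. Tgtp2 was at 6.26, 13.5, 14.1, 14.7 and 5.76 CPM in DSS-1 to DSS-5 and at 11.4, 19.2, 33.9, 4.18 and 3.68 CPM in ceAF-1 to ceAF-5. Tgtp2, its near copy on chromosome 11, had the same highest mouse, ceAF-3, and the same 4 low mice, DSS-1, DSS-5, ceAF-4 and ceAF-5. Reads shared by near copies may be placed on either gene, and the handling of such reads is not stated. Irf1 was at 230.0, 327, 324, 369 and 242 CPM in DSS-1 to DSS-5 and at 344, 337, 304, 231 and 212 CPM in ceAF-1 to ceAF-5. Irf1, the transcription factor among the members, was the steadiest of them, with a highest-to-lowest ratio of 1.60 in the DSS mice and 1.62 in the ceAF mice. Its log2 fold change was -0.06 (SE 0.18, adjusted p = 0.973) by the quasi-likelihood test, from -0.14 without ceAF-1 to 0.03 without ceAF-5 and -0.33 without the 3 mice, and ceAF-4, ceAF-5, DSS-1 and DSS-5 were its low mice.

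**Figure D1:**
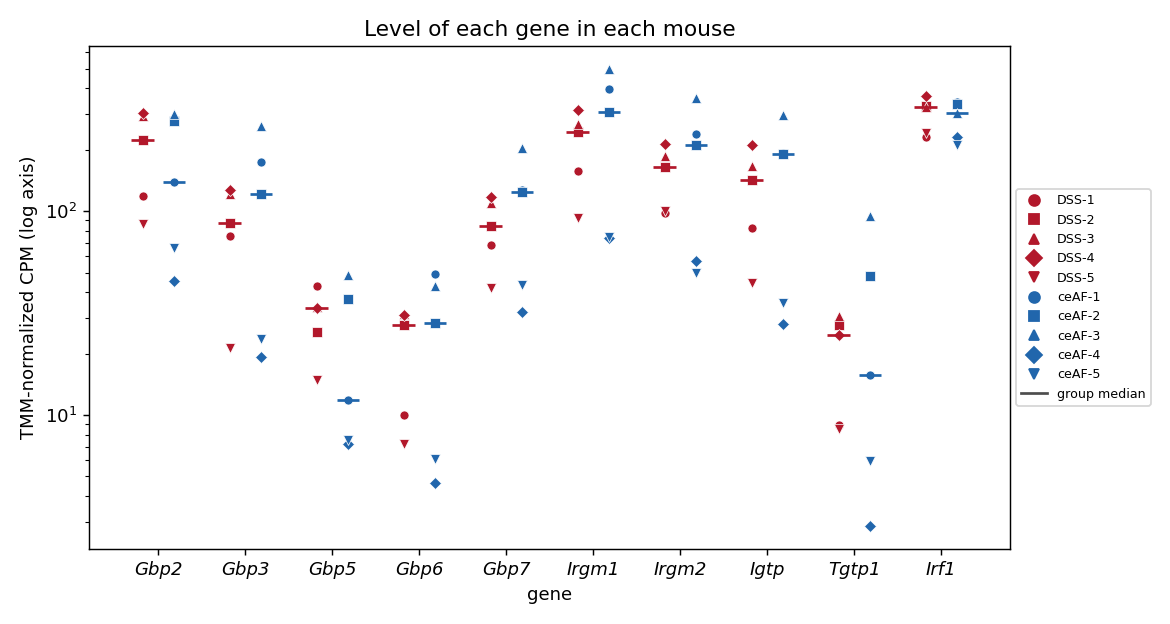
Level of each of the 10 genes in each mouse, in TMM-normalized CPM on a log axis, with DSS mice in red, ceAF mice in blue, 1 marker shape per replicate number and a horizontal line at each group median. The groups overlapped for all 10 genes; Irf1 spread least, and Tgtp1 ranged from 2.86 CPM in ceAF-4 to 94.9 CPM in ceAF-3.

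Across the members, 0 of 10 passed an adjusted p of 0.05 in the quasi-likelihood test of edgeR, where the share of all genes tested that passed was 0%, and the smallest adjusted p was 0.902 among the members and 0.656 among all genes. DESeq2 also called 0 of 10 members, beside 27 lower (0.0833%) and 4 higher (0.0123%) of the 32419 genes it tested. At an unadjusted p of 0.05, 0 members were lower in ceAF, beside 3.67% of all genes tested, and 0 were higher, beside 3.26%. The exact permutation test over all 252 assignments of the mice gave the members p-values of 0.254 (Gbp5) to 0.976 (Irgm1 and Tgtp1), so that 0 of 10 passed 0.05 unadjusted, beside 6.66% of all genes. No member separated the groups without overlap: 0 of 10 lay wholly lower in ceAF, beside 0.465% of all genes, and 0 of 10 wholly higher, beside 0.774%. These p-values do not show that the members were equal in the groups, since the spread of 9 of 10 was wide.

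Direction depended on how the mice were averaged. By fitted fold change, 3 members were lower in ceAF (Gbp2, Gbp5 and Irf1) and 7 higher, with a median log2 fold change of 0.28, beside 0.01 over all genes tested. By the difference of mean log2 CPM, 7 members were lower and 3 higher (Gbp3, Gbp7 and Irgm1), with a median of -0.06, beside -0.01 over all genes. Over all genes tested, 8034 were lower and 8511 higher by fitted fold change. The members' median was 0.26 with upper quartile scaling and 0.22 with total count scaling, but -0.03 and -0.08 on FPKM with a pseudocount of 1 and 0.1. With 1 mouse left out it ranged from -0.10 without ceAF-3 to 0.54 without ceAF-4, and it was -0.25 without the 3 mice, which takes out DSS-1 and DSS-5, the lowest DSS mice in the members' mean. Leaving out ceAF-3 alone turned the sign of 6 of the 10 fitted fold changes, those of Gbp3, Gbp7, Irgm1, Irgm2, Igtp and Tgtp1, to between -0.20 (Igtp) and -0.0039 (Irgm1). Gbp6 turned to -0.07 without ceAF-1, and Irf1 turned to 0.02, 0.01 and 0.03 without DSS-4, ceAF-4 and ceAF-5.

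Of the members, 9 of 10, all but Irf1, were spread more within groups than the median gene. The members' median within-group SD of log2 CPM was 1.05, from 0.310 for Irf1 to 1.60 for Tgtp1, beside a median of 0.327 over all genes tested. Highest-to-lowest ratios within the DSS group ran from 1.60 for Irf1 to 5.96 for Gbp3, and within the ceAF group from 1.62 for Irf1 to 33.1 for Tgtp1. ceAF-4 and ceAF-5 were among the 3 lowest mice for 10 of 10 members, ceAF-4 being the lowest for 8 and ceAF-5 for 2 (Irgm2 and Irf1). The remaining place among the 3 lowest went to DSS-5 for 7 members, to DSS-1 for Irgm2 and Irf1, and to ceAF-1 for Gbp5. At the upper end, ceAF-3 was the highest mouse for 7 members, DSS-4 for Gbp2 and Irf1, and ceAF-1 for Gbp6. Summed over the 10 members, the level was 894, 1355, 1561, 1742 and 660.1 CPM in DSS-1 to DSS-5 and 1694, 1683, 2409, 501 and 525 CPM in ceAF-1 to ceAF-5.

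Per kilobase of exonic length, the scale used to compare levels between genes, the mean level over the 10 mice was 73.6 CPM per kb for Gbp2, 73.4 for Irf1 and 68.9 for Igtp. Below these came Irgm2 at 45.5, Irgm1 at 41.7 and Gbp3 at 31.6 CPM per kb. The lower levels were those of Gbp7 at 17.0, Tgtp1 at 8.36, Gbp6 at 4.0 and Gbp5 at 3.97 CPM per kb. In the DSS mice the gap between neighbours in the order was larger than either SD only for Gbp7 (15.1 ± 5.52 CPM per kb, n = 5) over Tgtp1 (6.28 ± 3.31). In the ceAF mice no pair of neighbours differed beyond its spread, and Igtp (73.9 ± 57.2), Irf1 (71.8 ± 15.3) and Gbp2 (65.9 ± 46.8) stood at the top. The group means of Irgm1 were 37.0 ± 15.2 CPM per kb in the DSS mice and 46.5 ± 32.9 in the ceAF mice. Those of Irf1, the member with the smallest spread, were 75.1 ± 15 CPM per kb in the DSS mice and 71.8 ± 15.3 in the ceAF mice.

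The members lie on 3 chromosomes, with positions given here as the deposited table has them, in an unnamed genome build whose coordinates differ from those of the promoter windows below. On chromosome 3 are Gbp2 (ENSMUSG00000028270, 142326363 to 142343769), Gbp3 (ENSMUSG00000028268, 142265787 to 142278970), Gbp5 (ENSMUSG00000105504, 142199739 to 142228105) and Gbp7 (ENSMUSG00000040253, 142236103 to 142255910), all on the plus strand of 1 cluster. On chromosome 5 is Gbp6 (ENSMUSG00000104713, 105418568 to 105441564), in the second Gbp cluster, on the minus strand. On chromosome 11 are Irgm1 (ENSMUSG00000046879, 48752795 to 48762510) and Tgtp1 (ENSMUSG00000078922, 48876154 to 48884999) on the minus strand, and Irgm2 (ENSMUSG00000069874, 58090444 to 58113608), Igtp (ENSMUSG00000078853, 58090382 to 58098417) and Irf1 (ENSMUSG00000018899, 53660841 to 53669200) on the plus strand. Tgtp1 also overlaps Gm12185 on the same strand and Olfr56 on the opposite strand, and Irf1 overlaps Gm17334 on the opposite strand, and whether counting used the strand is not stated.

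Upstream of the members, Ifng itself was scarce. Its raw counts were 39, 70, 53, 74 and 18 in DSS-1 to DSS-5 and 11, 26, 15, 2 and 8 in ceAF-1 to ceAF-5. DSS-5 was the low DSS mouse and ceAF-4 had almost none, while the highest ceAF mouse, ceAF-2, lay above DSS-5 and below the other 4 DSS mice. The log2 fold change of Ifng was -1.92 (SE 0.555, unadjusted p = 0.00538, adjusted p = 0.656) by the quasi-likelihood test, and 5 of 5 ceAF mice lay below the DSS median. The exact permutation p for Ifng was 0.0159, unadjusted, where 0.00794 is the smallest that the design allows. The receptor chains Ifngr1 and Ifngr2 had log2 fold changes of 0.02 and 0.04, and the kinases Jak1 and Jak2 of -0.15 and 0.02, with adjusted p-values of 0.842 to 0.987, and with 1 mouse left out these 4 values lay between -0.21 (Jak1) and 0.17 (Ifngr2), and without the 3 mice Ifngr1, Ifngr2, Jak1 and Jak2 were at 0.16, -0.19, 0.00 and 0.02. Socs1, the feedback inhibitor of the kinases, had a log2 fold change of -0.77 (SE 0.406, unadjusted p = 0.0852, adjusted p = 0.739). Without DSS-4 it was -0.52, without ceAF-1 -1.07 with an unadjusted p of 0.0195, and without the 3 mice -1.27 with an unadjusted p of 0.0159.

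Of the 19 tested genes of interferon gamma signaling, 9 were lower in ceAF and 10 higher (median log2 fold change 0.02, -0.01 with total count scaling, -0.11 without ceAF-3 to 0.05 without ceAF-5, and -0.10 without the 3 mice), and 0 of 19 passed the adjusted test. At an unadjusted p of 0.05, 2 were lower, Ifng and Socs3, and 0 higher. Socs3, an inhibitor of cytokine receptors induced mostly through Stat3, was high in DSS-1 and DSS-5, at 151 and 194 CPM against 39.6 to 48.1 CPM in the other DSS mice. Its log2 fold change was -1.54 (SE 0.475, unadjusted p = 0.00789, adjusted p = 0.656), and without the 3 mice it was -0.36, with an unadjusted p of 0.187. By p-value these were followed among the lower genes by Ptpn11, at -0.21 (SE 0.0961, unadjusted p = 0.0518, adjusted p = 0.72), and the first 3 among the higher ones were Irf2, Stat2 and Batf2, at log2 fold changes of 0.23, 0.38 and 0.24, and of 0.16, 0.08 and 0.00 without ceAF-3 and 0.09, -0.10 and 0.15 without the 3 mice. The list had 2 or 3 lower and 0 or 1 higher genes at an unadjusted p of 0.05 with 1 mouse left out.

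The members were then set beside Ifng over the 10 mice, with both groups pooled, in 10 relations of log2 CPM. Pearson's r was highest for Gbp2 at 0.781 (permutation p = 0.00725, adjusted p = 0.27 over all genes tested other than Ifng), with Spearman's rho of 0.636 (permutation p = 0.0567). Gbp5 had an r of 0.743 (permutation p = 0.014, adjusted p = 0.331) and a rho of 0.442 (permutation p = 0.206). The lowest r was that of Gbp7, 0.528 (permutation p = 0.119), with a rho of 0.236 (permutation p = 0.516). By the unadjusted permutation p of r, 2 of 10 members passed 0.05 with r above 0 (Gbp2 and Gbp5), beside 5.13% of the 16544 genes other than Ifng. After adjustment over those genes, 0 of 10 passed, beside 0.0846%. The median r was 0.573 over the members and 0.0267 over all genes. Without DSS-4 and ceAF-4, the mice farthest from the median of Ifng, r was between 0.159 (Gbp7) and 0.613 (Gbp5), so that the pooled relation rested in part on those mice.

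The pooled values mix the difference of Ifng between the groups with the differences among mice of a group. A second form, chosen after seeing the data, therefore used each gene's deviation from its group mean, with the mice permuted within groups. On these deviations r with Ifng was 0.901 for Gbp2 (permutation p = 0.00101, adjusted p = 0.278 over all genes tested other than Ifng, rho 0.855 with permutation p = 0.00885). Igtp had an r of 0.873 (permutation p = 0.00248, adjusted p = 0.352, rho 0.867 with permutation p = 0.00752). The lowest was Gbp5 at 0.721 (permutation p = 0.0409, rho 0.648 with permutation p = 0.098). By the unadjusted permutation p of r, 10 of 10 members passed 0.05 with r above 0 in this form, beside 4.93% of the 16544 genes other than Ifng. After adjustment over those genes, 0 of 10 passed, beside 0%. The median r was 0.829 over the members and 0.00583 over all genes. Without DSS-5 and ceAF-4, the mice farthest from the median, r lay between 0.523 (Gbp5) and 0.836 (Irf1). The 10 members share these mice and move together, so the 10 relations are not independent of each other.

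**Figure D2:**
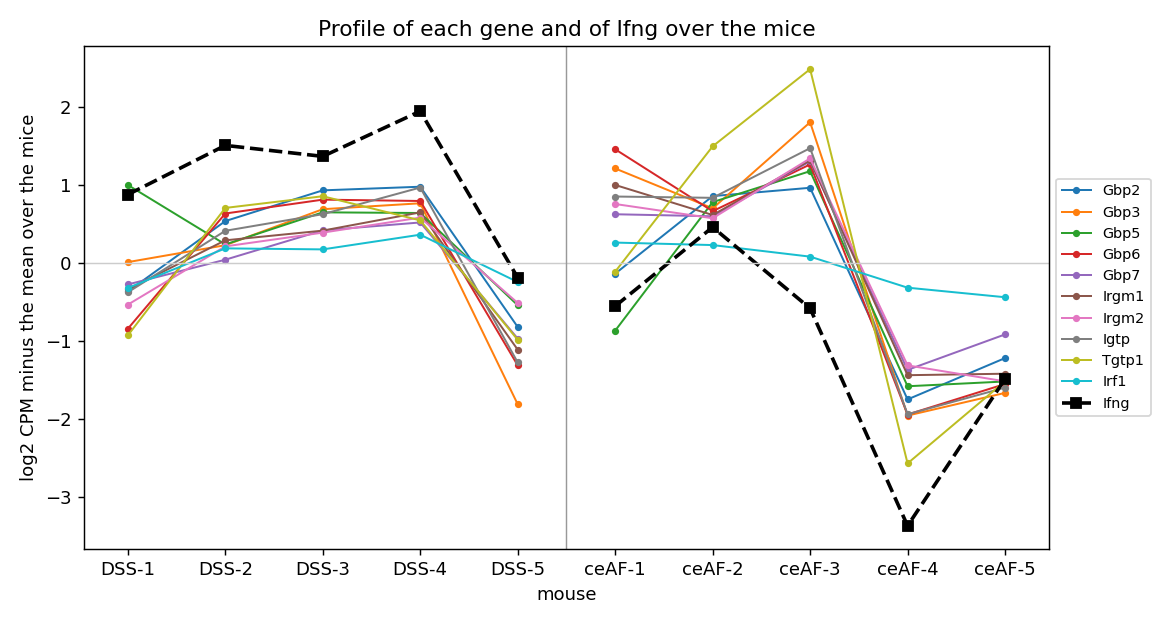
Log2 CPM of each of the 10 genes and of Ifng (dashed black line) in each mouse, minus the gene's mean over the 10 mice, with DSS mice on the left and ceAF mice on the right. DSS-5, ceAF-4 and ceAF-5 are low for Ifng and for most of the 10 genes within their groups, while the line of Ifng lies higher in the DSS mice and lower in the ceAF mice than most of the others.

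The members were also set against the amount of Ifng in the same mouse, as the ratio of a member's CPM to the CPM of Ifng, a measure chosen after seeing the data and given without a test. The ratio for Irgm1 was 69.9, 69.8, 83.9, 66.0 and 85.6 in DSS-1 to DSS-5 and 476, 181, 604, 618 and 169.9 in ceAF-1 to ceAF-5. The ratio for Gbp2 was 52.7, 63.7, 92.2, 63.8 and 80.5 in DSS-1 to DSS-5 and 166, 164, 364, 383 and 150.0 in ceAF-1 to ceAF-5. For both genes every ceAF mouse lay above every DSS mouse, and the medians of Irgm1 were 69.9 in the DSS mice and 476 in the ceAF mice. The same held for 8 of 10 members, beside 6.97% of all genes tested other than Ifng, and 0 of 10 lay wholly lower, beside 0%. The exceptions were Gbp5, where ceAF-1 and ceAF-5 lay within the DSS range, and Irf1, where ceAF-2 did. The ratio of Irf1 was 102, 93.5, 102, 77.9 and 224 in DSS-1 to DSS-5 and 410.0, 199, 369, 1932 and 482 in ceAF-1 to ceAF-5. With 2 to 26 Ifng counts per ceAF mouse, the counting error of these ratios is large, and since all share the Ifng value they are not independent. The ratios also carry the lower Ifng of the ceAF mice and the relation of the members to Ifng within groups. They restate those 2 results and show no difference of the members themselves. Undivided, Irgm1 had group means of 215 CPM in the DSS mice and 270 CPM in the ceAF mice, with overlap.

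The genes whose profile over the 10 mice was most like the centred mean of the members, of 16535 others ranked by Pearson's r, included 4 immunity-related GTPases. Gm12185, an immunity-related GTPase that overlaps Tgtp1 in the annotation, came first with an r of 0.994. Gm12250, known as Irgb10, had 0.988, Gm4951 0.987 and Iigp1, the effector Irga6, 0.984. Others among the 10 were Apol10b at 0.990, the complement gene C2 at 0.978, Epsti1 at 0.976, H2-T22, a class I histocompatibility gene, at 0.967, and the peptide transporter Tap1 at 0.966. These correlations describe 10 mice that share 2 groups and carry no test. Iigp1 was at 85.7, 236, 273, 294 and 46.5 CPM in DSS-1 to DSS-5 and at 366, 289.6, 512, 33.3 and 35.5 CPM in ceAF-1 to ceAF-5. As for the members, ceAF-3 was the highest mouse of Iigp1, and ceAF-4, ceAF-5 and DSS-5 the lowest. Ifng stood at rank 882 with an r of 0.638, and Ifngr1 at rank 7516.

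Of 20 tested genes among the other interferon-inducible GTPases, 5 were lower and 15 higher in ceAF (median log2 fold change 0.41), and 0 passed the test in either direction at an unadjusted or an adjusted p of 0.05, while with 1 mouse left out 0 to 2 were higher at an unadjusted p of 0.05. With 1 mouse left out the median ranged from -0.06 without ceAF-3 to 0.68 without ceAF-4, and it was -0.01 without the 3 mice and 0.01 with voom. Iigp1 had a log2 fold change of 0.40 (SE 0.759, adjusted p = 0.953) and Gm12250, the most abundant of the list per length, of 0.47 (SE 0.703, adjusted p = 0.935), and these were -0.04 and -0.01 without ceAF-3 and -0.30 and -0.11 without the 3 mice. In the Gbp cluster of chromosome 3, Gbp2b had -0.32, on only 4 to 69 counts per DSS mouse. In that of chromosome 5, Gbp4, Gbp8 and Gbp9, which overlap on the same strand, had -0.31, 0.00 and 0.20, and Gbp10 and Gbp11 had 0.20 and -0.29, on only 1 to 29 and 5 to 32 counts per mouse. Gbp2b ranged with 1 mouse left out from -0.84 to -0.04, Gbp4 from -0.58 to -0.10, Gbp8 from -0.24 to 0.25, Gbp9 from -0.12 to 0.40, Gbp10 from -0.10 to 0.57 and Gbp11 from -0.59 to -0.06. Without the 3 mice these 6 genes were at -0.72, -0.69, -0.67, -0.01, -0.64 and -0.88. The smallest p among the higher genes belonged to 9930111J21Rik2, at 1.02 (SE 0.534, unadjusted p = 0.0811, adjusted p = 0.739), with 0.25 and an unadjusted p of 0.489 without ceAF-3 and 1.25 and an unadjusted p of 0.0361 without ceAF-4, followed by the dynamin-like antiviral GTPases Mx1 and Mx2, and among the lower ones to Gvin3, at -0.42 (SE 0.480, unadjusted p = 0.402, adjusted p = 0.91), from -0.76 without ceAF-3 to -0.01 without DSS-1 and at 0.00 without the 3 mice. Mx1 had a log2 fold change of 1.31, and without ceAF-3, where it stood at 551 CPM, of 0.01.

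Further targets gave the members' setting. Of 35 other interferon gamma targets, such as antigen presentation genes and chemokines, 26 were lower and 9 higher (median log2 fold change -0.18, -0.33 without ceAF-3 to 0.03 without ceAF-4, and -0.51 without the 3 mice), and the number at an unadjusted p under 0.05 was 0, but 0 to 5 lower with 1 mouse left out (5 without DSS-5) and 7 lower and 1 higher without the 3 mice. Over all genes, 762 of 16784 were lower at this p without DSS-5, and 1348 of 16884 lower and 1227 higher without the 3 mice. The smallest p-values were those of Serpina3g, Slamf8 and Fcgr1 among the lower genes and of Dtx3l, Parp9 and Parp14 among the higher ones, from 0.0848 for Serpina3g to 0.623 for Parp14. All 25 type I interferon response genes were higher by fitted fold change, with a median of 0.54 (0.12 without ceAF-3 to 0.81 without DSS-4, and 0.02 without the 3 mice), but 14 of 25 were lower by the difference of mean log2 CPM, the median was -0.03 and -0.04 on FPKM with a pseudocount of 1 and 0.1, and 0 reached an unadjusted p of 0.05, or 1 without ceAF-4 or ceAF-5. Their first 3 were Ifit3b, Ifit3 and Rsad2, with log2 fold changes of 1.58, 1.21 and 1.03, which were 0.42, 0.36 and 0.20 without ceAF-3 and 1.24, 0.63 and 0.47 without the 3 mice, and Isg15, the most abundant per length, ranged from 9.90 CPM in ceAF-5 to 326 CPM in ceAF-3. Of 17 partners of Gbp-dependent defence, such as inflammasome and autophagy genes, 11 were lower and 6 higher, with a median of -0.13 (-0.14 without DSS-1 to -0.05 without DSS-5 with 1 mouse left out, and -0.09 without the 3 mice), and 1 in each direction had an unadjusted p under 0.05, with 0 to 4 lower and 1 higher when 1 mouse was left out. Aim2 was at 100.4, 107, 111, 109.6 and 97.8 CPM in DSS-1 to DSS-5 and at 128, 121, 129, 130.1 and 114 CPM in ceAF-1 to ceAF-5. Aim2, the sensor of cytosolic DNA that GBPs help to activate, thus lay higher in all 5 ceAF mice than in any DSS mouse, with a log2 fold change of 0.24 (SE 0.0794, unadjusted p = 0.011, adjusted p = 0.656). It is named for the smallest p among the higher genes of the list. Of the 17 genes, 1 lay wholly higher and 0 wholly lower, beside 0.774% and 0.465% of all genes. At an unadjusted p of 0.05 in the quasi-likelihood test, 3.26% of all genes were higher and 3.67% lower. Nlrp3, at -3.48 (SE 1.11, unadjusted p = 0.00957, adjusted p = 0.656), was high in DSS-1, with 44.2 CPM against at most 4.73 CPM elsewhere, and its log2 fold change was -1.21 without DSS-1, with an unadjusted p of 0.0619, and -1.26 without the 3 mice, with an unadjusted p of 0.0490. That of Aim2 was 0.23 to 0.27 with 1 mouse left out, with unadjusted p-values of 0.00626 to 0.0265, and 0.18 without the 3 mice, with an unadjusted p of 0.0921. The next genes by p were Pex5 and Gabarap, at -0.20 and -0.21, and Casp1 and Casp8, at 0.19 and 0.18, and without the 3 mice these 4 were -0.22, -0.22, -0.08 and 0.10.

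Markers of the cells that secrete interferon gamma lay lower in the ceAF mice, as Ifng did. Of 11 T cell markers, 11 were lower in ceAF (median log2 fold change -1.25, -1.45 without ceAF-2 to -1.09 without ceAF-4, and -1.53 without the 3 mice), and 11 of 11 reached an unadjusted p of 0.05, beside 3.67% of all genes tested that were lower at this p, or 10 to 11 with 1 mouse left out, while 0 passed after adjustment over all genes in the quasi-likelihood test. DESeq2 called 4 of the 11 lower after adjustment, Cd3d, Cd3g, Cd8a and Cd8b1 (adjusted p = 0.0129, 0.000832, 0.0129 and 0.000798), beside 0.0833% of the genes it tested, and the quasi-likelihood test called Cd3g without DSS-5 (adjusted p = 0.0366) and without the 3 mice (adjusted p = 0.0327). The study had already named Cd3d, Cd3e, Cd3g, Cd8a and Cd8b1 among the genes changed by ceAF, from the same sequencing. The 4 genes called by DESeq2 are among them, so this list is not independent evidence. The summed level of the 11 T cell markers was 151, 165, 159, 174 and 62.9 CPM in DSS-1 to DSS-5 and 60.8, 78.3, 64.3, 35.7 and 43.0 CPM in ceAF-1 to ceAF-5. DSS-5 was the lowest of the DSS mice, as it was for Ifng and for 8 members. The smallest p-values were those of Cd3g, Cd8b1 and Cd8a, with log2 fold changes of -1.47, -2.08 and -1.42, the most abundant marker per length was Trbc2, at 6.96 to 19.9 CPM in the DSS mice and 3.16 to 10.8 CPM in the ceAF mice, and none was at 0 in any mouse. Of 10 tested cytotoxic and natural killer markers, 10 were lower, with a median of -0.78 (-1.02 without ceAF-2 to -0.62 without DSS-3, and -1.25 without the 3 mice), 3 of them at an unadjusted p under 0.05 (Ccl5, Nkg7 and Tbx21), or 3 to 5 with 1 mouse left out and 7 without the 3 mice. Over all genes, 3.67% were lower at this p with all mice, and 1348 of 16884 without the 3 mice. After adjustment 0 passed in the quasi-likelihood test, while DESeq2 called Ccl5 (adjusted p = 0.00333), and so did the quasi-likelihood test without DSS-5 (adjusted p = 0.0366). The summed level of the cytotoxic and natural killer markers was 82.0, 166, 168, 166 and 54.6 CPM in DSS-1 to DSS-5 and 82.9, 108, 58.3, 35.0 and 45.1 CPM in ceAF-1 to ceAF-5, the most abundant per length was Gzma, at 13.4 to 43.5 CPM in the DSS mice and 12.9 to 31.7 CPM in the ceAF mice, and Ncr1 was at 0 in at least 1 mouse. The part of these cells in the levels of Ifng and of the members was not tested.

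The profile of the members over the mice also lay beside that of genes that mark position and surface cells in the colon. Of 9 tested colon position genes, 2 were lower and 7 higher, or 4 lower and 5 higher by the difference of mean log2 CPM. Their median log2 fold change was 0.38 (0.28 without DSS-5 to 0.86 without DSS-3, and 0.48 without the 3 mice), with 0 lower and 1 higher at an unadjusted p under 0.05 (Hoxd13), or 0 to 3 higher with 1 mouse left out, and a summed level of 352 to 521 CPM in the DSS mice and 308 to 703 CPM in the ceAF mice. Hoxb6 was at 1.27, 25.3, 36.6, 22.4 and 0.960 CPM in DSS-1 to DSS-5 and at 91.0, 0.846, 17.4, 2.98 and 0.880 CPM in ceAF-1 to ceAF-5. Hoxb6, a gene of the proximal colon named here after its values were seen, was high in DSS-2, DSS-3, DSS-4, ceAF-1 and ceAF-3, 5 mice in which members such as Irgm1 were also high, but not in ceAF-2, where Irgm1 was high as well. ceAF-1, with the most Hoxb6, was among the 3 highest mice for 7 members. Gbp2, Gbp5 and Tgtp1 were there at 139.6, 11.8 and 15.7 CPM, below the DSS medians of 223, 33.6 and 24.8 CPM. Hoxb13 was at 76.3, 95.2, 93.0, 112 and 206 CPM in DSS-1 to DSS-5 and at 6.18, 215, 149, 10.2 and 185 CPM in ceAF-1 to ceAF-5. Hoxb13, a gene of the distal colon and the most abundant of the list per length, was low in ceAF-1 and ceAF-4, of which ceAF-1 was high and ceAF-4 low for most members. Hoxa13 was at 3.13 CPM in ceAF-1 and at 41.4 CPM or more in every other mouse, Hoxd11, Hoxd12 and Hoxd13 were at 0 in at least 1 mouse, and the log2 fold change of Hoxd11 was 1.58, from 1.13 without ceAF-2 to 1.95 without DSS-3. Hoxd13, at 2.91, was high in ceAF-2 and ceAF-3, and leaving out DSS-1, DSS-2, DSS-3, DSS-4, ceAF-2 or ceAF-3 took its unadjusted p over 0.05, at log2 fold changes of 2.25 to 3.05, and without the 3 mice it was 3.33, with an unadjusted p of 0.0612. Of 11 epithelial markers, 5 were lower and 6 higher, with a median of 0.07 (-0.03 without DSS-5 to 0.16 without DSS-4, and -0.04 without the 3 mice) and 0 at an unadjusted p under 0.05, or 1 lower without ceAF-4. Their summed level was 21813, 26461, 28411, 30110.0 and 16919.7 CPM in DSS-1 to DSS-5 and 30446, 23412, 25914, 24025 and 19854 CPM in ceAF-1 to ceAF-5. Car1, a carbonic anhydrase of colonocytes and their most abundant marker per length, was at 1118, 4653, 7774, 4956 and 115 CPM in the DSS mice and 11922, 814, 3344, 753 and 505 CPM in the ceAF mice, and none was at 0. The piece of colon that was sampled is not stated to be the same in every mouse, and the part of position in the members' levels was not tested.

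Other cell types that can make the members were compared in the same way. Of 11 macrophage markers, 10 were lower in ceAF, with a median of -0.51 (-0.64 without ceAF-3 to -0.36 without ceAF-1, and -0.35 without the 3 mice) and 2 at an unadjusted p under 0.05 (Adgre1 and C1qa, and 0 to 3 with 1 mouse left out), their summed level was 248 to 493 CPM in the DSS mice and 215 to 325 CPM in the ceAF mice, and Lyz2 was the most abundant. Adgre1 lost this p when DSS-1, DSS-2, DSS-3, ceAF-1, ceAF-4 or ceAF-5 was left out (log2 fold changes of -0.55 to -0.49) or without the 3 mice (-0.41), and C1qa when any mouse but DSS-5 and ceAF-3 was (-0.68 to -0.44). The next was C1qc at -0.56, from -0.68 without ceAF-3 to -0.36 without ceAF-1, and the only higher gene was Mertk at 0.44, from 0.16 without ceAF-1 to 0.59 without ceAF-2 and -0.01 without the 3 mice. Of 6 tested neutrophil markers, 6 were lower, with a median of -3.96 (-4.32 without ceAF-4 to -1.52 without DSS-1, and -1.15 without the 3 mice) and 5 at an unadjusted p under 0.05, or 1 without DSS-1 and 0 with voom, Ly6g was the most abundant, and Mmp8 and Camp were at 0 in at least 1 mouse. Without DSS-1, S100a9, Retnlg and Cxcr2, the 3 with the smallest p, had log2 fold changes of -2.62, -2.31 and -1.07, in place of -5.15, -5.72 and -3.94, and Retnlg and Cxcr2 had unadjusted p-values of 0.0835 and 0.201. B cell markers were lower for 7 of 7, with a median of -0.69 (-1.20 without ceAF-5 to 0.61 without DSS-1, 0.96 without the 3 mice, and 0.20 with voom), 0 at an unadjusted p under 0.05, or 1 higher without the 3 mice, a summed level of 28.9 to 220.3 CPM in the DSS mice and 8.09 to 109 CPM in the ceAF mice and Cd79a the most abundant, beside Cd79b and Fcer2a with the smallest p-values. Plasma cell markers were lower for 7 of 7, with a median of -0.41 (-0.57 without ceAF-2 to -0.17 without ceAF-1, and -0.29 without the 3 mice), 1 at an unadjusted p under 0.05 (Derl3, before Xbp1), a summed level of 1422 to 3352 CPM in the DSS mice and 731 to 2639.7 CPM in the ceAF mice, Igha the most abundant and Mzb1 at 0 in at least 1 mouse.

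In the tissue that holds the members' mucosal cells, fibroblast markers were lower for 7 of 7, with a median log2 fold change of -0.37 (-0.44 without ceAF-4 to 0.01 without DSS-1, and 0.20 without the 3 mice) and 0 at an unadjusted p under 0.05, or 0 to 1 with 1 mouse left out. Their summed level was 495 to 1106 CPM in the DSS mice and 174 to 830.5 CPM in the ceAF mice, Col3a1 was the most abundant, and Lum, Dpt and Pdgfra had the smallest p-values. Endothelial markers were lower for 7 of 7, with a median of -0.40 (-0.77 without ceAF-4 to -0.19 without ceAF-1, and -0.07 without the 3 mice), 1 at an unadjusted p under 0.05 (Cldn5, with -0.98 and an unadjusted p of 0.0513 without the 3 mice, before Plvap and Pecam1), or 4 without ceAF-4, a summed level of 79.1 to 147 CPM in the DSS mice and 33.7 to 140.2 CPM in the ceAF mice and Plvap the most abundant. Smooth muscle markers were lower for 7 of 7, with a median of -0.12 (-0.37 without ceAF-2 to 0.04 without ceAF-1, 0.25 without the 3 mice, and 0.09 with voom), 0 at an unadjusted p under 0.05, a summed level of 1338 to 2786 CPM in the DSS mice and 1203 to 2984 CPM in the ceAF mice and Actg2 the most abundant, before Acta2 and Cnn1. ceAF-4 and ceAF-5, among the 3 lowest mice for all 10 members, were not at the low end of every list: ceAF-4 had the highest endothelial level of the ceAF mice, and ceAF-5 the highest B cell level. The part of these cell types in the members' levels was not tested.

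Promoters are shown because the members moved together over the mice and belong to a family with known interferon elements. Promoter windows of 300 bases, 250 before and 50 after the start, came from RefSeq on build GRCm38.p6, with 11 windows for 9 of 10 members and none for Gbp6. Their coordinates cannot be set against the deposited positions above. For Gbp2 the deposited position begins at 142326363 and the window at 142620413, and for Igtp at 58090382 and 58199306. Both strands were searched for the ISRE-type letters GAAANNGAAA and the GAS letters TTCNNNGAA. An ISRE-type match was in the windows of 8 of 9 members, all but Irf1, or 8 of their 11 windows, and in 3.44% of 32851 promoter windows of the same length. A GAS match was in the windows of 6 of 9 members, Gbp5, Gbp7, Irgm2, Igtp, Tgtp1 and Irf1, or 6 of the 11 windows, and in 8.3% of all windows, and 0.454% of all windows held both. No GAS match overlapped an ISRE-type match in the members. A match is a description of letters and was not tested as a site.

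Irgm2, Igtp and Tgtp1 shared an arrangement, noticed after the sequences were seen: a GAS match and an ISRE-type match with 2 bases between them. It was in 5 of 32851 windows (0.0152%), the others being those of Tgtp2 and Gm12185, which are close relatives of Tgtp1, so the 5 are not independent. In Irgm2 the GAS match began 75 bases before the start and the ISRE-type match 64 bases before it, in Igtp 45 and 34 bases, and in Tgtp1 88 and 77 bases. Irgm1, the other regulatory GTPase, held 2 ISRE-type matches that overlap each other and no GAS match, Gbp2 held 1 ISRE-type match, and Irf1 held 1 GAS match in 1 of its 2 windows. The windows were chr11:58214727-58215026 on the plus strand for Irgm2, chr11:58199306-58199605 on the plus strand for Igtp and chr11:48992197-48992496 on the minus strand for Tgtp1. Those of the others were chr11:48871371-48871670 on the minus strand for Irgm1, chr3:142620413-142620712 on the plus strand for Gbp2 and chr11:53769764-53770063 on the plus strand for Irf1. They read 5′ to 3′, with capitals marking the matches to either set of letters on either strand:
Irgm2: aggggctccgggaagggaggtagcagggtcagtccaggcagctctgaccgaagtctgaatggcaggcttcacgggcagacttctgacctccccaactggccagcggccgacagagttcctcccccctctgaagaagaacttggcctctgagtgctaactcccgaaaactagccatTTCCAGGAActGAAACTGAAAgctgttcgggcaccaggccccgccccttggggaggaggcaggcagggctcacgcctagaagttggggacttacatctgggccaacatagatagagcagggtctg
Igtp: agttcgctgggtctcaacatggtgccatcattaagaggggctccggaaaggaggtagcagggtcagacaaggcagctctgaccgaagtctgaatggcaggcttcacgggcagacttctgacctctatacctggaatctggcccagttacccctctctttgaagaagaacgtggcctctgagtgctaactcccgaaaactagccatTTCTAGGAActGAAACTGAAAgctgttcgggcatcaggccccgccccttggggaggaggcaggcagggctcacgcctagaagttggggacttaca
Tgtp1: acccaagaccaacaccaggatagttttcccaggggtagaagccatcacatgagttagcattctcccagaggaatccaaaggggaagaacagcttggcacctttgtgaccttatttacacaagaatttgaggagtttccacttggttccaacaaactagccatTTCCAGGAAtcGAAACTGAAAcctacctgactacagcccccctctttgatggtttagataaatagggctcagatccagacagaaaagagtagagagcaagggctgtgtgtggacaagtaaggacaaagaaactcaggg
Irgm1: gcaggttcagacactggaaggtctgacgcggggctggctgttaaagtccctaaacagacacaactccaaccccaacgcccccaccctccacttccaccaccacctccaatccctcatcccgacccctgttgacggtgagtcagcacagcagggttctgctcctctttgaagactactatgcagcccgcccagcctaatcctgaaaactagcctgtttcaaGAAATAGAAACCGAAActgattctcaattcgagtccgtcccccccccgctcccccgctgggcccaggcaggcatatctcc
Gbp2: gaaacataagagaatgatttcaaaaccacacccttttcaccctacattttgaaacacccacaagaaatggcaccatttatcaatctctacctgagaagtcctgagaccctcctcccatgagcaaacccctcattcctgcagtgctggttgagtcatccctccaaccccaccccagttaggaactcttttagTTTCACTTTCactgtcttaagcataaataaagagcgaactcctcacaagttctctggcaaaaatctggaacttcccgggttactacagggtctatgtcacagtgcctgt
Irf1: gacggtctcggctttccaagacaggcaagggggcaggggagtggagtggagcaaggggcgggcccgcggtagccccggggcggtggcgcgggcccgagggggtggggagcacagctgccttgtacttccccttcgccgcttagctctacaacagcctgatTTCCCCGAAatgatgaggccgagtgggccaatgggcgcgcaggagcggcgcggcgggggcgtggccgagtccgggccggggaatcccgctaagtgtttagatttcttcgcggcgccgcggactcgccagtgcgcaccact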

How the data were processed

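Colon poly(A) RNA of 5 DSS and 5 ceAF mice was read from 1 table deposited by the authors, which holds raw counts and FPKM per gene and the exonic gene length; the authors' notes name cutadapt 1.9.1 and HISAT2 2.2.1, and the counting program, genome build and use of strand are not given in the sources used here. FPKM are the authors' counts per kilobase of exonic length, scaled by the counted reads of the library. 0 sample columns were not used. Counts were fitted with edgeR 4.0.16 in R 4.3.3 (filterByExpr with a minimum count of 10, TMM, quasi-likelihood test, two-sided, Benjamini-Hochberg over 16545 genes). Log2 CPM used a prior count of 1, and CPM per kb divided CPM by the deposited length. Single genes had an exact permutation test of the difference of mean log2 CPM over 252 assignments, and relations to Ifng had two-sided permutation tests with 100000 resamples, run for every gene tested other than Ifng and adjusted over them (numpy 2.4.6, pandas 2.3.3, scipy 1.17.1, Python 3.11.15). Figures used matplotlib 3.10.9. The exact and quasi-likelihood tests were also run on simulated data, and no result of those runs is given here.

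The members and the 16 other lists were chosen with earlier results of these data known. Named are all members, Ifng, Ifngr1, Ifngr2, Jak1, Jak2, Socs1, Tgtp2, Gbp2b, Gbp4, Gbp8, Gbp9, Gbp10, Gbp11, Iigp1 and Gm12250, from each other list the 3 tested genes with the smallest p in each direction and from each marker list the most abundant gene per length, and the 10 genes most like the members' centred mean; 2 genes that the rule names are not reported here. The lists are other interferon-inducible GTPases, interferon gamma signaling, other interferon gamma targets, type I interferon response, Gbp-dependent defence partners, T cell, cytotoxic and NK, macrophage, neutrophil, B cell, plasma cell, epithelial, fibroblast, endothelial and smooth muscle markers, and colon position genes. Alternatives were DESeq2 1.42.0, upper quartile and total count scaling, no filter, a stricter filter (CPM above 1 in 5 libraries), limma 3.58.1 voom with sample weights, robust dispersion, limma-trend on FPKM with a pseudocount of 1 or 0.1, the replicate number as a block, and leaving out mice. Chosen after seeing the data were the deviations from group means, whose permutation within groups replaced a free permutation tried first that gave smaller p-values, the relation of all other genes to Ifng, the ratio to Ifng, the spacing of motif matches, and upper quartile or total count scaling for the exact test and the relation to Ifng. Counting error only is covered by the depth given.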

Additional observations from a re-analysis of the deposited data

Results flagged for a closer look

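In a survey of 26 genes in each group, the members, 7 genes of interferon gamma signaling and 9 relatives of the members, 2 of 52 groups of 5 mice had 1 mouse far from the other 4, by a gap of more than 0.71 of the group's range. Chance gives this in about 1 in 20 groups. Gbp9 was at 8.58 CPM in DSS-5, where the next lowest DSS mouse had 31.1 CPM. Ifngr1 was at 511 CPM in DSS-5, where the next highest DSS mouse had 393 CPM. No member was among them. DSS-5 was also among the 3 lowest mice for 7 of 10 members.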

How the results depend on the processing

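The counts of members that passed the adjusted test (0), the unadjusted test (0 in each direction) and the test of overlap between groups (0) were the same under every alternative run for them, DESeq2 included, and the smallest unadjusted p of any member was 0.0913 (Irf1). With upper quartile or total count scaling, the exact test also gave 0 of 10. By unadjusted p, the relation to Ifng was found for 10 of 10 members on deviations from the group means, in place of 2 on pooled values, 2 with upper quartile and 3 with total count scaling; the cause was not tested. Adjusted over all genes it was found for 0 in all 4 forms, and adjusted over the list alone, which is not independent evidence, for 10 on deviations and 0 in the others. The members' median log2 fold change did not stay on 1 side of 0: it ranged from -0.10 to 0.54 with 1 mouse left out and was 0.01 with voom. As a replicate block the median was -0.0049; the replicate numbers do not pair the samples, since not every mouse correlated best with its own number. Of 21 alternatives, the sign of the fold change turned in 6 for Igtp, 5 for Irgm2, 4 for Gbp6, 3 for Irf1, 2 each for Gbp3, Gbp7, Irgm1 and Tgtp1, and 0 for Gbp2 and Gbp5. Hoxa13, at -0.0081 with all mice, turned to 0.05, 0.04, 0.08 and 0.30 without DSS-1, DSS-4, DSS-5 and ceAF-1, each left out alone. Without DSS-1, DSS-5 and ceAF-1 together it was 0.48. Depth limits genes with few counts, such as Ifng with 2 counts in ceAF-4, whose log2 fold change ranged from -2.39 to -1.02.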
